A study of Rattus norvegicus with 20 samples.

Results

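A set of 8 genes was examined that lie in the chromosome 4 region exchanged between alcohol-preferring and nonpreferring rats and that are tied to red blood cells by a known role or by their pattern over the strains. They were Nt5c3a, Bpgm, Gadd45a, Mkrn1, Abcg2, Bola3, Cnbp and Abtb1, 8 of the 14217 genes that had a probe set with a single symbol, and they were read by 12 probe sets in all. Femur RNA was measured in 4 strains of rats aged 4 weeks, with 5 animals per strain and 1 Affymetrix Rat Genome 230 2.0 array per animal. NP.P rats carried the P segment of chromosome 4 (4q22-q34) on the NP background and were set against inbred alcohol-nonpreferring NP rats, and P.NP rats carried the NP segment on the P background and were set against inbred alcohol-preferring P rats. The whole bone was extracted (the sample labels name the proximal femur), so marrow RNA was included, and with bulk RNA a smaller number of cells of a type and less RNA per cell cannot be told apart. Each exchanged segment is long: 397 genes with a probe set lay in the region, so a difference between a congenic strain and its parent is not tied to any one of them. The 8 genes were chosen on the strain pattern of these same arrays, so their strain differences are a description. The calls of the fit over all probe sets are given for them only beside the share called over all, and are no evidence about the genes.

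Red cells form in the marrow from precursors that make hemoglobin and heme, pass through division and maturation, and then lose their nucleus and break down their RNA as reticulocytes. In long bones of young rats the marrow is active in red cell formation, so genes of these cells are strongly represented in RNA from a whole femur. Of the 8 genes, Nt5c3a encodes a cytosolic pyrimidine nucleotidase that removes pyrimidine nucleotides left by RNA breakdown in reticulocytes, and in humans its loss causes a hemolytic anemia. Bpgm encodes the bisphosphoglycerate mutase of red cells, whose product lowers the oxygen affinity of hemoglobin. Abcg2 is an efflux transporter that carries porphyrins and in humans bears the Junior blood group antigen. Bola3 acts in mitochondrial iron-sulfur cluster assembly, Mkrn1 encodes a RING finger ubiquitin ligase, Gadd45a is induced by DNA damage and growth arrest, Cnbp encodes a zinc finger protein that binds nucleic acids, and Abtb1 encodes a protein with ankyrin repeats and BTB domains.

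Upstream sequence is shown for Nt5c3a, which had the largest difference between the segments, and for Bpgm, Gadd45a and Mkrn1. Read at the brightest probe set of each gene, these last followed the erythroid genes most closely over the arrays. All 8 genes matched a RefSeq promoter of build GRCr8, and the 250 bases before the annotated start were read. The windows lie at chr4:87534839-87535088 (minus strand), chr4:64107027-64107276 (plus strand), chr4:97486800-97487049 (minus strand) and chr4:69163986-69164235 (minus strand), and are printed 5′ to 3′ on the strand of the gene. Capitals mark 3 kinds of letters, each searched on both strands. The GATA motif was read as AGATAA and as AGATAG, and with another first base as TGATAA and as TGATAG. The other two were the CCAAT motif, and the GC box, which was searched with the letters GGGCGG.
Nt5c3a: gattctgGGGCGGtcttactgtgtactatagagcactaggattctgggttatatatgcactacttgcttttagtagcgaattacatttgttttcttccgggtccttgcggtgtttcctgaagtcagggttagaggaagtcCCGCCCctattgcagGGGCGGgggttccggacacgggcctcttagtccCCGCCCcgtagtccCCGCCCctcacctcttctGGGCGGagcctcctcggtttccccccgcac
Bpgm: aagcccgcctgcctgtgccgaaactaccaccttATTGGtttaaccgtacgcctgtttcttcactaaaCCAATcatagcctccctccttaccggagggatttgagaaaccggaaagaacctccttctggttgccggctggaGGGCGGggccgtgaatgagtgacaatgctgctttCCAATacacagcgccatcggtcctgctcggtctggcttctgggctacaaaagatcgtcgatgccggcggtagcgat
Gadd45a: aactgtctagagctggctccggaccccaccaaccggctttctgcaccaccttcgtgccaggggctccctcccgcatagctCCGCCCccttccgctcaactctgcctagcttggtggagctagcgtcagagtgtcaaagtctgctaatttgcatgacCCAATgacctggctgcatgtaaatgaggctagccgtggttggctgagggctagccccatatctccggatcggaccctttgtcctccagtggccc
Mkrn1: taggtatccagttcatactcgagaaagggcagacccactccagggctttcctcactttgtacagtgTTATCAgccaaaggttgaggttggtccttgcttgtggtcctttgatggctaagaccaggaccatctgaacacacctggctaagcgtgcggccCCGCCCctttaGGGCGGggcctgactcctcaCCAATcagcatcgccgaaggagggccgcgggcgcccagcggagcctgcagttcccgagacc
In the Nt5c3a window GGGCGG was found 6 times, and the GATA motif and CCAAT were not found. The Bpgm window held CCAAT 3 times and GGGCGG 1 time, and the Gadd45a window held each of these 1 time. Mkrn1 held 1 GATA motif, 184 bases before the start, with CCAAT 1 time and GGGCGG 2 times. Among all 8 genes the GATA motif was found in 2 (Mkrn1 and Bola3), CCAAT in 4 and GGGCGG in 7. Over the 33469 promoter windows of the same length, 27.0% held the GATA motif, 34.0% CCAAT and 30.5% GGGCGG, and in the 35 matched windows of erythroid genes outside the region the numbers were 12, 15 and 20. The bases G and C made up 55.2% to 69.2% of the windows of the 8 genes, beside a median of 51.2% over all windows. The motif shares were not adjusted for this. No 2 kinds of motif overlapped in the 4 windows shown. These matches describe letters in the reference genome, and the alleles of the P and NP strains were not read.

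Nt5c3a separated the arrays by the origin of their chromosome 4 segment. Its signal (the MAS5 intensity, which the authors scaled to an equal trimmed mean in all arrays) was 5462, 5738, 5931, 6571 and 5908 in the 5 NP.P rats and 3471, 3207, 3693, 3926 and 3281 in the 5 NP rats. Every NP.P array was above every NP array. On the P background the signal was 3175, 3300, 3411, 2929 and 3387 in P.NP rats and 5067, 4819, 5025, 4926 and 5196 in P rats, so all P.NP arrays were below all P arrays. The 10 arrays with the P segment lay between 4819 and 6571 and the 10 with the NP segment between 2929 and 3926, without overlap. Among the 12 probe sets this was true of Nt5c3a only. How many other probe sets, in the region or over all, separate in this way was not counted. In the fit over the 20 arrays, the log2 difference was 0.75 ± 0.07 (SE, n = 5 per strain) for NP.P minus NP, which is 1.69-fold, and -0.63 ± 0.07 for P.NP minus P, which is 0.646-fold. For the inbred parents, P minus NP was 0.51 ± 0.07. In order of mean signal the strains ran NP.P, P, NP and P.NP, and only the last pair overlapped.

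**Figure D1:**
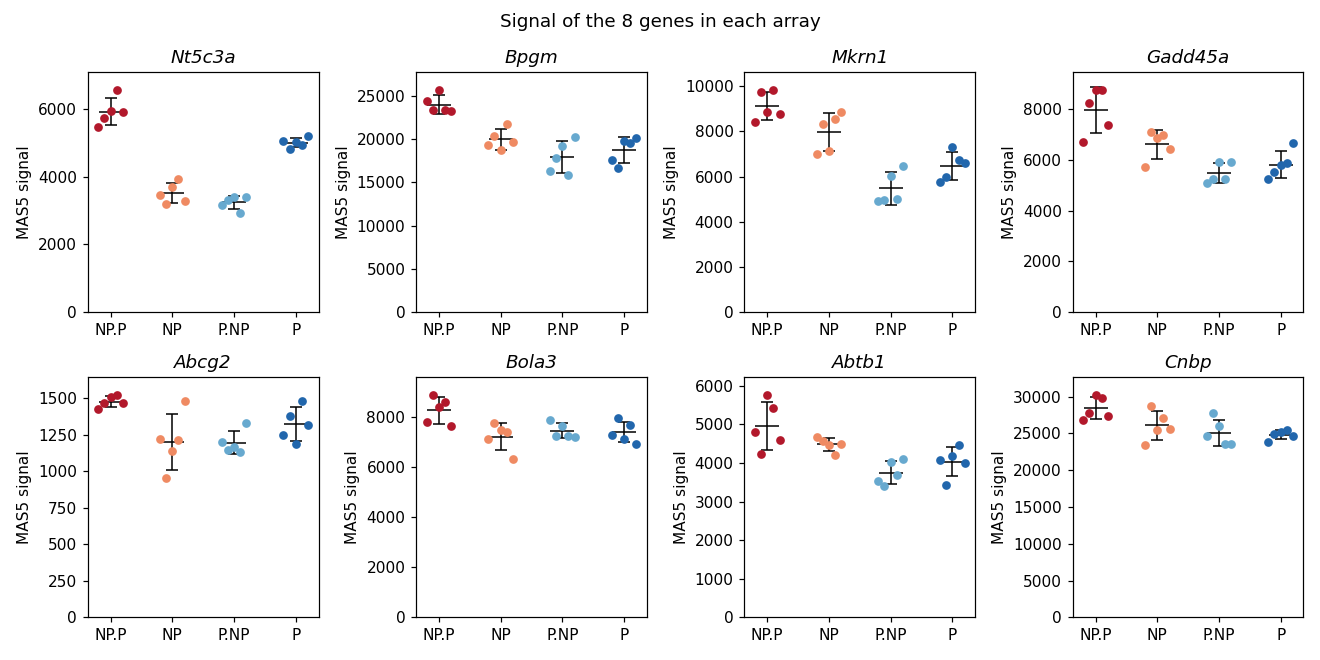
Signal of each gene (MAS5 units, linear axis from 0) in the 5 arrays of each strain, with points for arrays and black bars for the mean ± SD. Nt5c3a is high in NP.P (5922 ± 408) and P (5006 ± 143) and low in NP (3516 ± 297) and P.NP (3240 ± 197), whereas the arrays with the P and the NP segment overlap in each of the other 7 genes.

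Bpgm was also highest in NP.P rats, but without the split by segment on the P background. The brighter of its 2 probe sets gave 24345, 23306, 25683, 23304 and 23185 in NP.P rats and 19242, 20392, 18686, 21672 and 19665 in NP rats, without overlap. It gave 16320, 17838, 19232, 15879 and 20167 in P.NP rats and 17533, 16605, 19722, 19530 and 20127 in P rats, which overlapped over most of their range. The log2 differences were 0.27 ± 0.08 for NP.P minus NP, -0.07 ± 0.08 for P.NP minus P and -0.09 ± 0.08 for P minus NP. The dimmer probe set spanned 10847 to 11873 in NP.P and 8656 to 11465 in NP rats, which overlapped, and its log2 difference was 0.18 ± 0.11. Both probe sets followed each other over the 20 arrays with a Pearson r of 0.86.

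Mkrn1 was read by 4 probe sets, which agreed on NP.P as the highest strain and P.NP as the lowest but not on the inbred parents. The brightest gave 8406, 9749, 8872, 9845 and 8756 in NP.P rats and 6977, 8323, 7144, 8532 and 8876 in NP rats. In P.NP rats it gave 4925, 4942, 6009, 5027 and 6488, and in P rats 5769, 6001, 7328, 6738 and 6590. NP.P and NP overlapped, as did P.NP and P, while every NP.P array exceeded every array of either strain on the P background. Its log2 differences were 0.20 ± 0.10 for NP.P minus NP, -0.25 ± 0.10 for P.NP minus P and -0.30 ± 0.10 for P minus NP. Over the 4 probe sets, NP.P minus NP lay between 0.14 and 0.27 and P.NP minus P between -0.25 and -0.10. P minus NP was -0.30, -0.0011, -0.14 and 0.05 from the brightest to the dimmest, so the difference between the parents depended on the probe set. Both probe sets next in brightness showed no overlap between NP.P and the strain below it, NP. The correlations between the probe sets over the 20 arrays lay between 0.44 and 0.87, and the lowest involved the dimmest one.

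**Figure D2:**
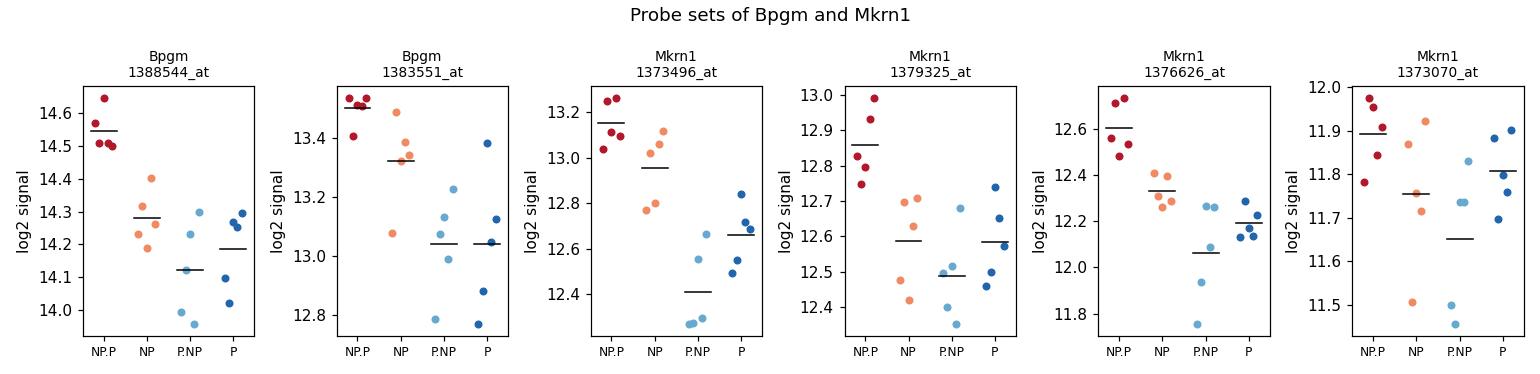
Log2 signal of the 2 probe sets of Bpgm and the 4 of Mkrn1 in each array, with a black line at the strain mean. NP.P is the highest strain in all 6 panels, while the order of NP and P differs between the probe sets of Mkrn1.

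Gadd45a gave 6707, 8217, 8759, 8739 and 7360 in NP.P rats and 5710, 7074, 6840, 6993 and 6422 in NP rats. The strains overlapped through NP.P replicate 1 alone. In P.NP rats its signal was 5096, 5235, 5918, 5230 and 5913, and in P rats 5247, 5512, 5788, 5866 and 6644, which overlapped. Replicate 1 was the lowest array in each of the 4 strains. The log2 differences were 0.26 ± 0.09 for NP.P minus NP, -0.08 ± 0.09 for P.NP minus P and -0.19 ± 0.09 for P minus NP.

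In the remaining 4 genes NP.P overlapped the strain next to it. Abcg2 spanned 1429 to 1522 in NP.P and 953 to 1480 in NP rats, with a log2 difference of 0.31 ± 0.09, and 1132 to 1329 in P.NP and 1185 to 1483 in P rats, with a difference of -0.15 ± 0.09. Its NP.P arrays were the closest together of the 4 strains (SD 37.1, against 190 in NP, 79.7 in P.NP and 116 in P). Abcg2 and Nt5c3a were the genes of the 8 in which P ranked second, and P minus NP was 0.15 ± 0.09 for Abcg2. Bola3 spanned 7661 to 8897 in NP.P and 6345 to 7770 in NP rats (0.20 ± 0.07), and 7232 to 7877 in P.NP and 6951 to 7961 in P rats (0.01 ± 0.07). Its strains other than NP.P overlapped throughout. Abtb1 spanned 4238 to 5763 in NP.P and 4214 to 4676 in NP rats (0.14 ± 0.09, and 0.08 without NP.P replicate 3, its highest array), and 3403 to 4090 in P.NP and 3428 to 4467 in P rats (-0.10 ± 0.09). Cnbp spanned 26851 to 30230 in NP.P and 23458 to 28683 in NP rats (0.12 ± 0.07), and 23577 to 27730 in P.NP and 23867 to 25486 in P rats (0.02 ± 0.07).

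NP.P had the highest mean signal of the 4 strains for all 12 probe sets. Over the 8 genes, read at the brightest probe set, NP.P minus NP was above 0 in 8 with a median of 0.23, beside -0.01 over all 18625 probe sets tested. P.NP minus P was below 0 in 6 with a median of -0.09, beside 0.00056 over all. When the strains were combined, the P segment minus the NP segment, averaged over both backgrounds, was above 0 in 8 genes (median 0.17, range 0.05 to 0.69), and the P background minus the NP background was below 0 in 8 (median -0.22, range -0.52 to -0.06). Nt5c3a had the largest segment value, 0.69 ± 0.05, beside a background value of -0.18 ± 0.05. Mkrn1 had the opposite weighting at its brightest probe set, with a segment value of 0.22 ± 0.07 and a background value of -0.52 ± 0.07. From the next brightest to the dimmest, its other probe sets gave segment values of 0.18, 0.20 and 0.15. Their background values were -0.19, -0.34 and -0.09, so the weighting of Mkrn1 depended on the probe set. Gadd45a (0.17 ± 0.06 and -0.36 ± 0.06), Bpgm (0.17 ± 0.05 and -0.26 ± 0.05), Abtb1 (0.12 ± 0.06 and -0.28 ± 0.06) and Cnbp (0.05 ± 0.05 and -0.12 ± 0.05) also had a background value larger in size than the segment value. At a false discovery rate of 10% the limma F test over the strains called 6 of the 8 genes, the exceptions being Bola3 and Cnbp, beside 18.2% of all probe sets. NP.P minus NP called 1 of the 8 higher (beside 0.816% of all probe sets) and 0 lower (1.49%), P.NP minus P called 1 lower (0.118%) and 0 higher (0.113%), and P minus NP called 1 higher (2.43%) and 0 lower (2.94%). Each of these single calls was Nt5c3a. The values that chose the genes enter these counts, so nothing was read from them.

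Erythroid genes that lie outside the exchanged segment were set beside the 8 genes. Their list, like those of the pathways and other cells, was chosen with earlier results of these data known. The counts and p values of these lists are therefore not independent evidence. Of 58 listed genes of heme synthesis, iron uptake, globins, the membrane skeleton, blood groups, regulators and enzymes of red cells, 46 had a probe set of their own and passed the filter. NP.P minus NP was above 0 in 45 of the 46, with a median log2 difference of 0.21, and limma called 8 higher and 0 lower. P.NP minus P was above 0 in 6, with a median of -0.08, and limma called 0 of them, with 8 at an unadjusted p under 0.05 and 0 called by the unequal-variance test of the methods. P minus NP had a median of -0.12 and 1 gene was called, Rhag, which encodes the Rh-associated glycoprotein of the red cell membrane and was lower in P than in NP rats (-0.39, limma adjusted p = 0.0493). The F test called 39 of the 46, beside 18.2% of all probe sets. Over all probe sets 0.816% were called higher and 1.49% lower in NP.P minus NP. The shares were 0.113% and 0.118% in P.NP minus P, and 2.43% and 2.94% in P minus NP. The 8 calls of NP.P minus NP depended on the fit: 0 passed when NP.P and NP were fitted alone or with the unequal-variance test (25 and 28 at an unadjusted p under 0.05), and 16 passed with a mean-variance trend. With single arrays left out the number was 3 to 9.

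Heme synthesis held 4 of the 8 called genes among its 7 measured ones. Fech, which inserts iron into the porphyrin ring, averaged 26084 ± 1088 in NP.P and 21999 ± 1197 in NP rats (SD, n = 5 each), a log2 difference of 0.25 ± 0.06 with a limma adjusted p of 0.073. Alad and Urod, earlier enzymes of the path, differed by 0.29 ± 0.08 (adjusted p = 0.079) and 0.28 ± 0.08 (adjusted p = 0.084) in limma, and Cpox was the fourth (0.29 ± 0.08, adjusted p = 0.0902). Slc25a37, the mitoferrin that brings iron into mitochondria, rose by 0.36 ± 0.06 (limma adjusted p = 0.0133) and was the 1 call among 4 genes of iron uptake. Tfrc and Slc11a2 of the same list did not pass (0.20 ± 0.07 and 0.15 ± 0.08).

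Among 11 regulators, E2f2, a cell cycle factor of erythroid precursors, and Hemgn, an erythroid nuclear protein, rose in NP.P against NP by 0.38 ± 0.08 and 0.28 ± 0.06 (limma adjusted p = 0.0321 for each), and Klf1, an erythroid transcription factor (0.35 ± 0.10), did not pass. Xk, which carries the Kx antigen, was the call among 5 surface genes (0.26 ± 0.07, limma adjusted p = 0.0907), with Rhd at 0.23 ± 0.07 and Gypc at 0.23 ± 0.08. None of the 4 globin and chaperone genes, 8 membrane skeleton genes and 7 red cell enzymes passed in NP.P minus NP by limma, with 1, 4 and 5 at an unadjusted p under 0.05. Their leading genes were Hba-a3 (0.30 ± 0.10), Ahsp (0.13 ± 0.07) and Hbe1 (0.42 ± 0.24) for the globins, Epb42 (0.31 ± 0.10), Dmtn (0.25 ± 0.09) and Add1 (0.16 ± 0.07) for the skeleton, and Cat (0.22 ± 0.06), Car2 (0.18 ± 0.06) and Prdx2 (0.19 ± 0.07) for the enzymes. Hbb, the remaining gene of the globin list, differed by 0.03 ± 0.10. Some globin genes are near-identical copies of each other, and Cat, Car2 and Add1 are made in many other cells. The exception to the positive sign was Cd24, which is also a B cell antigen and differed by -0.30.

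In the region, 4 more genes with known red cell roles are not among the 8. Kel, the Kell blood group protein, was called higher in NP.P than in NP (0.36 ± 0.07, limma adjusted p = 0.0203), as was Aqp1, the water channel of the red cell membrane (0.36 ± 0.07, limma adjusted p = 0.03). Add2 of the membrane skeleton (0.29 ± 0.09) and Ube2h, a ubiquitin-conjugating enzyme (0.19 ± 0.08), did not pass. In P.NP minus P these genes differed by -0.21, -0.20, -0.16 and 0.06 in the order named, and limma called 0 of the 4, with 2 at an unadjusted p under 0.05.

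**Figure D3:**
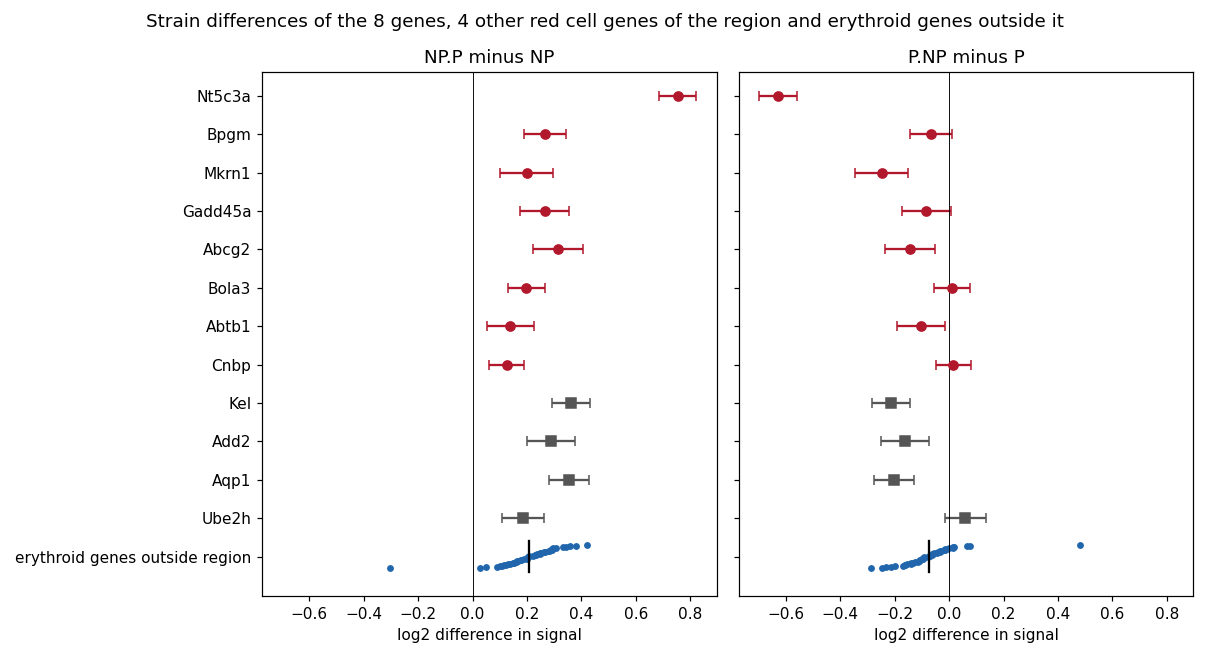
Log2 differences in signal for NP.P minus NP (left) and P.NP minus P (right), with SE bars for the 8 genes (circles) and 4 other red cell genes of the region (squares), and 1 point for each of the 46 erythroid genes outside it with a black line at their median (0.21 and -0.08). Nt5c3a (0.75 and -0.63) lies beyond all of the erythroid genes in both panels, and the other 7 genes lie within their range.

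Genes that act beside the 8 in their pathways were counted from the same fit. Of 46 such genes outside the region that were tested, the F test called 14, beside 18.2% of all probe sets. NP.P minus NP called 2 higher and 0 lower, beside 0.816% and 1.49% of all probe sets, and its median was 0.06. Hk1, the hexokinase of red cells, differed by 0.28 ± 0.07 (limma adjusted p = 0.0804) and was the call among 12 genes of glycolysis, the path from which Bpgm branches, with Tpi1 (0.33 ± 0.19) and Pgk1 (0.18 ± 0.13) next. Abcb10, a mitochondrial transporter of erythroid cells, rose by 0.32 ± 0.07 (limma adjusted p = 0.032) and was the call among 7 porphyrin and heme transporters, the group of Abcg2, where Slc48a1 (-0.18 ± 0.08) and Abcb6 (0.19 ± 0.15) followed. Limma called 0 of 9 genes of nucleotidases and pyrimidine salvage in NP.P minus NP, with 0 at an unadjusted p under 0.05. Its leading genes by p were nucleotidases, with -0.33 ± 0.20 for Nt5c, 0.14 ± 0.09 for Nt5c3b and 0.16 ± 0.12 for Nt5c2, where Nt5c3a gave 0.75 ± 0.07. In the Gadd45 family and p53 response, limma called 0 of 7, also with 0 at an unadjusted p under 0.05, and Gadd45g (0.18 ± 0.13), Sesn1 (0.18 ± 0.11) and Mdm2 (-0.10 ± 0.07) led by p. In iron-sulfur cluster assembly, the setting of Bola3, limma called 0 of 11 with 2 at an unadjusted p under 0.05, and Hscb (0.17 ± 0.07), Isca1 (0.26 ± 0.11) and Iba57 (0.26 ± 0.14) led. By the F test over the strains 3 of 9 nucleotidase and salvage genes, 3 of 12 of glycolysis, 1 of 7 of the Gadd45 and p53 group, 3 of 7 transporters and 4 of 11 of iron-sulfur assembly were called, beside 18.2% of all probe sets.

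An erythroid score was taken for each array as the mean, over the 46 erythroid genes outside the region, of each log2 signal after subtracting the gene's own 20-array average. It was 0.16, 0.24, 0.26, 0.23 and 0.26 in NP.P rats and -0.07, 0.04, 0.08, 0.09 and -0.03 in NP rats, without overlap. It was -0.14, -0.21, -0.12, -0.24 and -0.10 in P.NP rats and -0.14, -0.10, -0.10, -0.09 and -0.02 in P rats, which overlapped. The means were 0.23 ± 0.04 in NP.P, 0.02 ± 0.07 in NP, -0.16 ± 0.06 in P.NP and -0.09 ± 0.04 in P rats (SD, n = 5 each).

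Gadd45a followed the score most closely of the 8, with a Pearson r of 0.94 over the 20 arrays, and with 0.76 after the mean of each strain was subtracted. At their brightest probe sets Bpgm (0.89, and 0.48 within strains) and Mkrn1 (0.88, and 0.44 within strains) came next. The dimmer probe set of Bpgm gave 0.80, and 0.38 within strains. From the next brightest to the dimmest, the other probe sets of Mkrn1 gave 0.79, 0.84 and 0.49, and 0.33, 0.15 and 0.02 within strains. Abtb1 (0.76, and 0.10 within strains), Cnbp (0.72, and 0.31), Bola3 (0.57, and 0.31) and Abcg2 (0.51, and -0.02) followed. Nt5c3a had an r of 0.68 over all arrays and 0.60 within strains, the second highest of the 8 within strains. The 46 erythroid genes, each set against the score of the other erythroid genes, had a median r of 0.83 (0.44 within strains). The 10335 other genes outside the region had a median of -0.06, and 1271 of them were above 0.5. Gadd45a was above 99.9% of these other genes, Bola3 above 90.6% and Abcg2 above 88.2% (49.5% within strains). Gadd45a was above 40 of the 46 erythroid genes, Bpgm above 33, Mkrn1 above 32 and Nt5c3a above 12. Scores taken in the same way from markers of other marrow cells also followed some of the 8. With the B lymphoid score, r was -0.79 for Cnbp and -0.72 for Bola3, larger in size than with the erythroid score. In the other genes the erythroid r was the larger in size. With the granulocyte score, r was 0.77 for Mkrn1 and 0.70 for Abtb1. That score includes Lcn2, which differed by -3.93 in P minus NP. The arrays share their strain and the scaling of each array, and the genes were picked for such a pattern, so these values are given with no test.

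**Figure D4:**
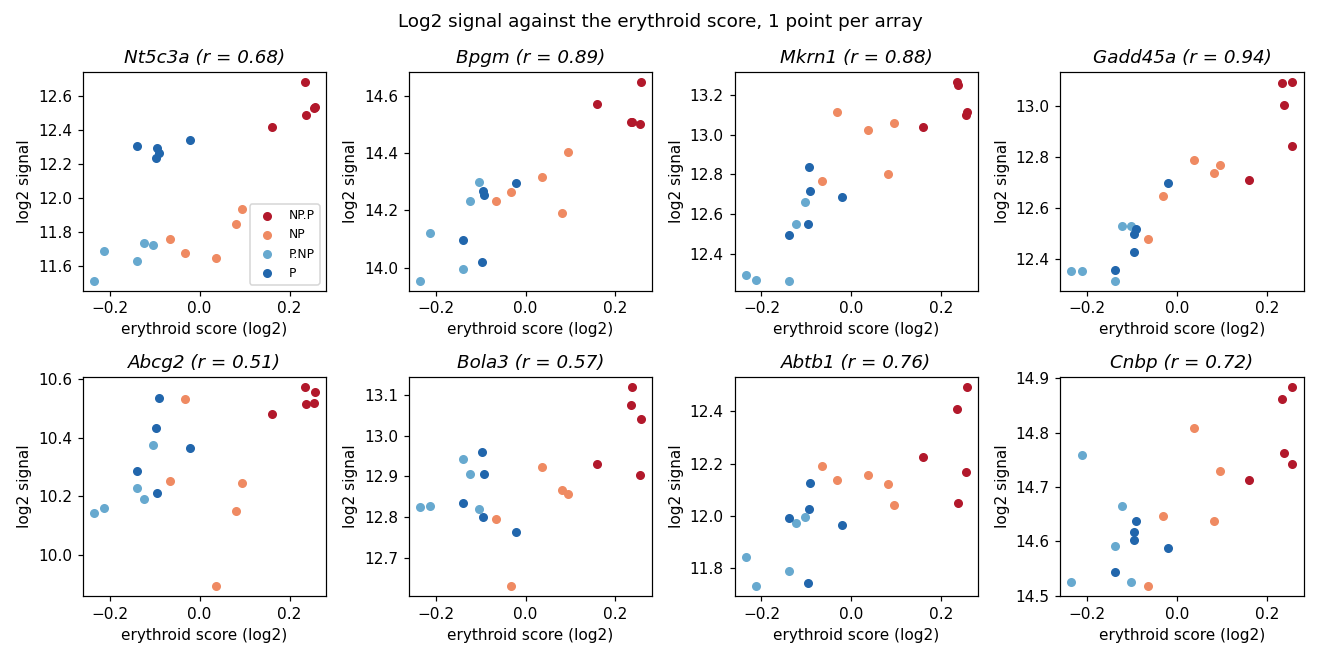
Log2 signal of each of the 8 genes (vertical axis) against the erythroid score (horizontal axis, log2 units), with 1 point per array coloured by strain. Gadd45a, Bpgm and Mkrn1 lie along a single band (r = 0.94, 0.89 and 0.88), whereas the P arrays of Nt5c3a lie at a log2 signal of 12.23 to 12.34 beside 11.52 to 11.74 in P.NP arrays, whose scores overlap those of P in part.

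With the score as a covariate, NP.P minus NP lay within about 1 SE of 0 in 6 of the 8 genes, the exceptions being Nt5c3a and Abcg2. For Nt5c3a, NP.P minus NP was 0.54 ± 0.11 with the score beside 0.75 ± 0.07 without it, P.NP minus P was -0.55 ± 0.07 beside -0.63 ± 0.07, and P minus NP was 0.63 ± 0.08 beside 0.51 ± 0.07. Abcg2 gave 0.32 ± 0.17 beside 0.31 ± 0.09 for NP.P minus NP. Gadd45a gave -0.12 ± 0.12 beside 0.26 ± 0.09, Mkrn1 -0.05 ± 0.16 beside 0.20 ± 0.10 and Bpgm 0.07 ± 0.13 beside 0.27 ± 0.08. Over the 8 genes the median of NP.P minus NP was 0.08 with the score and 0.23 without it. Over all probe sets the F test called 464 (2.49%) with the score in the fit and 3390 without it. In NP.P minus NP it was 0 probe sets with the score, Nt5c3a included, and 429 without it. The score itself differs between the strains, and its genes rest on the same arrays. Its values in NP.P and NP do not overlap, so the fit can hardly separate the score from this contrast. The SE of Nt5c3a in NP.P minus NP grew 1.62-fold. A value near 0 with the score is therefore no test of red cell content, and the genes are not sorted by it.

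**Figure D5:**
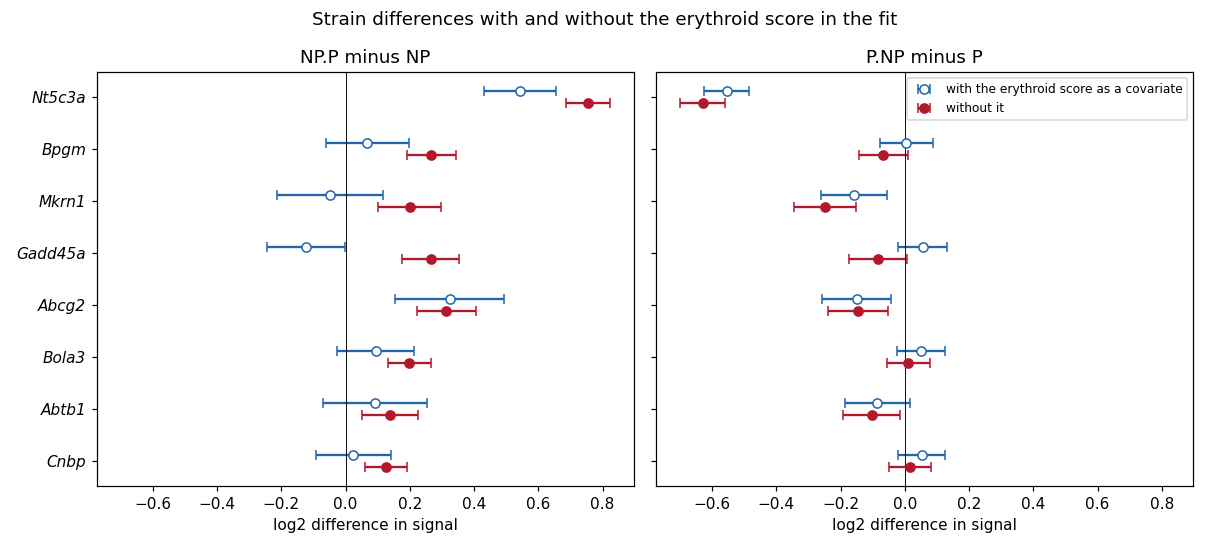
Log2 difference in signal (horizontal axis) with SE bars for NP.P minus NP (left) and P.NP minus P (right), with the erythroid score as a covariate (open) and without it (filled). With the score Nt5c3a lies at 0.54 and -0.55. Gadd45a, Mkrn1, Bpgm, Cnbp, Bola3 and Abtb1 lie within about 1 SE of 0 on the left once the score is in the fit. The scores of NP.P and NP do not overlap, so the left panel can hardly separate the score from the strain.

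Among the 8 genes, pairwise r over the 20 arrays lay between 0.23 (Abcg2 with Cnbp) and 0.89 (Mkrn1 with Gadd45a). Bpgm, Mkrn1 and Gadd45a were alike in each pairing (0.87 and 0.88 for Bpgm with the other two), and their within-strain values were 0.68 for Bpgm with Mkrn1, 0.64 for Mkrn1 with Gadd45a and 0.56 for Bpgm with Gadd45a. Nt5c3a paired best with Abcg2 over all arrays (0.70), but with an r of 0.15 within strains.

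Outside the region, the genes most like each of the 8 over the 20 arrays were listed by Pearson r. For Gadd45a these were Cd36 (0.95), Fech (0.94), Ubac1 (0.91), Slc6a9 (0.91) and Prdx2 (0.90). Bpgm was most like Cdc25b and Fech (0.91 each), Myo5c (0.90), Vamp3 and Rbm43 (0.89 each). Mkrn1 was most like Rsad2 (0.95), Hagh and Isg20 (0.93 each), Creg1 and Tent5c (0.92 each). Fech, Prdx2 and Hagh belong to the erythroid lists. The genes nearest to Nt5c3a were Slc43a1 (0.87), Trak2 (0.84), Marchf3 (0.83), Xpo7 (0.81) and Wdr26 (0.80), none of which was on those lists, and the r of Slc43a1 was 0.11 within strains. Abcg2 had a lower best match, Fads1 (0.80), before Pcgf5 (0.80), Hap1 (0.78), Ciapin1 (0.77) and Nid2-ps16 (0.76). Bola3 was nearest to Ola1 (0.84), Thyn1 (0.82), Fgfbp3 (0.80), Kiaa0232 (0.79) and Prdx3 (0.77). For Cnbp the list was Mpst and Rpl4 (0.86 each), Prdx3 (0.84), Ppa2 and Eif2s2 (0.83 each), and for Abtb1 it was Add1 and Adipor1 (0.84 each), Fis1, Rbm43 and Cd36 (0.83 each). Add1 is also on an erythroid list.

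Markers of other marrow cells also differed between the strains, and those of bone and cartilage were not called in NP.P minus NP. All 7 tested megakaryocyte and platelet markers were lower in NP.P than in NP, 3 of them by the limma call, with a median of -0.28, and their summed signal was 42745 to 53557 in NP.P and 55874 to 65729 in NP rats. In P.NP minus P, 6 of the 7 were higher (median 0.13) and limma called 0, with 0 at an unadjusted p under 0.05. In P minus NP, 5 of the 7 were called lower, with a median of -0.68. Over all probe sets 1.49% were called lower in NP.P minus NP and 2.94% in P minus NP. All 4 B lymphoid markers were lower, 3 by the call, with a median of -0.44, and sums of 15160 to 20365 in NP.P and 17434 to 23561 in NP rats. In P.NP minus P their median was -0.04 and in P minus NP 0.05, with 0 called in either and 0 at an unadjusted p under 0.05. All 4 granulocyte markers were lower, 1 by the call, with a median of -0.27, and sums of 104867 to 126728 in NP.P and 118731 to 142788 in NP rats. In P.NP minus P all 4 were lower (median -0.17) with 0 called and 2 at an unadjusted p under 0.05, and in P minus NP 1 was called lower (median -0.05). The granulocyte call was Lcn2 both in NP.P minus NP (-0.35) and in P minus NP (-3.93). In P minus NP, S100a8, S100a9 and Camp differed by 0.11, 0.03 and -0.12. Of 9 osteoblast and bone matrix markers 6 were higher and 0 were called (0 at an unadjusted p under 0.05), and of 6 cartilage markers 5 were higher and 0 were called (likewise 0). In P replicate 2 the summed cartilage signal was 66493, the lowest of the 20 arrays. No marker of these lists or of the erythroid list was at 0, and the dimmest was Hbe1 with a mean signal of 244. The summed signal of the 46 erythroid genes was 770958 to 828174 in NP.P and 624983 to 742454 in NP rats, and 598431 to 648309 in P.NP and 621098 to 701063 in P rats. The part of these cell types in the differences of the 8 genes was not tested. The array medians lay between 292 and 322, and GAPDH signal at the 3' end was 1.03 to 1.15 times that at the 5' end.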

How the data were processed

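Femur RNA from 20 rats, 5 per strain, was hybridized to 1 array each. The authors deposited MAS5 signals from the GCOS software, which are intensities on a linear scale. Robust multichip values and detection calls were not used here. Signals below 1 (190 values) were raised to 1 before the log2 transformation. After the 57 control probe sets were set aside, 31042 remained, and those in the upper part by mean signal (at least the 40th percentile, 169.7), 18625 in all, were fitted with limma 3.58.1 in R 4.3.3, with 4 strain means over the 20 arrays and 16 residual degrees of freedom. P values were adjusted by Benjamini-Hochberg over all of them at a false discovery rate of 10%. The labels do not say whether animals were littermates, so p values measure the spread between these rats.

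The 20826 probe sets with 1 gene symbol were named, and a gene was read at its brightest probe set. The region ran from Arf5 to Ppp4r2 in the gene order of GRCr8. Of the 165 listed genes, 36 had no probe set of their own. Named genes were the 8 genes, the 5 genes most like each, and 4 red cell genes of the region. The 3 with the smallest p in NP.P minus NP in each erythroid and pathway list were also named. Rhag, Cd24, Cpox, Hbb, Lcn2, S100a8, S100a9 and Camp were chosen after their values were seen. The genes and lists were chosen with earlier results of these data known.

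Alternatives were quantile normalization, other filters, an offset of 21.7 before the log, a mean-variance trend, 2-strain fits, a false discovery rate of 5%, the methods' unequal-variance test, the erythroid score as a covariate, Spearman correlation, other probe sets, a block for replicate number, and leaving out each array. The limma fit was tested on simulated data. Python 3.11.15 drew the figures, and sequences came from RefSeq.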

Additional observations from a re-analysis of the deposited data

Results flagged for a closer look

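Nt5c3a moved in opposite directions when the segment was exchanged: its log2 difference was 0.75 for NP.P minus NP and -0.63 for P.NP minus P, with every array of each congenic strain on its own side of every array of its parent. The first comparison adds the P segment and the second removes it. Since these values chose the gene, no p value is given for the difference between the 2 contrasts.

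Within NP.P rats, the dimmer probe set of Bpgm was lowest in replicate 2 (10847, beside 11650 to 11873 in the other 4), and the erythroid score was lowest in replicate 1 (0.16, beside 0.23 to 0.26). Each gap to the next array took up most of the range of the strain (0.78 and 0.77 of it). Of 52 such checks 2 stood out, where chance gives about 1 in 20.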

How the results depend on the processing

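Every log2 difference of the 8 genes moved by less than the residual SD of its gene when single arrays were left out (480 values), P replicate 2 with its low cartilage signal included, and no called difference of theirs changed sign under any alternative run. Relative to their own size, 11 of the 24 differences, none of them called and none above 0.16 in size, moved by over 1.5 times without some array. Abtb1 in NP.P minus NP was 0.08 without NP.P replicate 3, Abcg2 in P minus NP 0.07 without NP replicate 2, and Gadd45a in P.NP minus P -0.03 without P replicate 5. Bola3 in P.NP minus P and in P minus NP and Cnbp in P.NP minus P, all near 0, changed sign without some array. Of 156 values under other alternatives 14 moved by more, 9 of them with the erythroid score as a covariate and 5 at another probe set of Bpgm or Mkrn1.

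The number of erythroid genes called depended on the processing more than their direction did. In NP.P minus NP, 8 became 3 with quantile normalization, with no filter and at a false discovery rate of 5%, 16 with a mean-variance trend, 15 with the filter at the 60th percentile, and 0 with the 2 strains fitted alone or by the methods' unequal-variance test (25 and 28 at an unadjusted p under 0.05). In P minus NP, 1 became 2 with quantile normalization, 4 with the trend and with the 60th percentile filter, and 0 with no filter and in the 2-strain fit (11 and 7 at an unadjusted p under 0.05). Leaving out single arrays gave 3 to 9 calls in NP.P minus NP, 0 to 5 in P minus NP, 35 to 40 in the F test, 5 to 7 of the 8 genes and 12 to 18 of the pathway genes in theirs, and 0 to 0 in P.NP minus P. For NP.P minus NP the number was 3 without NP replicate 5 or NP.P replicate 2, 4 or 5, 4 without NP replicate 1 or 3, and 5 without NP.P replicate 3 or P.NP replicate 1. For P minus NP it was 0 without NP replicate 4, P replicate 2 or P replicate 4, 2 without P replicate 1, 4 without NP replicate 1 or P replicate 5, and 5 without NP replicate 2. With the erythroid score as a covariate the F test called 1 of the 8 genes and 1 pathway gene, Pgk1, where 6 and 14 had been called; the values that chose the 8 genes enter their counts.

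The replicate number paired only some arrays: 5 of 30 same-numbered pairs had a correlation of their deviations over 0.1 (range -0.09 to 0.33). The 3 highest were the pairs of replicate 2 among NP, P.NP and P (0.26 to 0.33). All pairs of replicate 5 were above 0 (0.07 to 0.10). The labels name no batch, so a batch shared by part of the arrays was not tested. With the replicate number as a block, 6 erythroid genes were called in NP.P minus NP, 2 in P minus NP and 39 in the F test. In that fit 6 of the 8 genes and 13 pathway genes were called in the F test.

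Correlations with the score changed by more than their jackknife SE for 4 genes with quantile normalization (Bpgm 0.84, Bola3 0.40, Gadd45a 0.91, Cnbp 0.55) and for Bola3 by Spearman correlation (0.41). The number of arrays, 5 per strain, limits the precision, and signals near background were left out by the filter.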
